A study of Mus musculus with 6 samples.

Results

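This report describes 10 transcription factor genes of limb, stromal and regional mesenchyme in primary mouse embryo fibroblasts: Foxd1, Tcf21, Tbx4, Tbx5, Pitx1, Prrx1, Prrx2, Twist1, Twist2 and Meox2. They were taken as every probe set annotated to 1 of these symbols, which gave 20 probe sets out of 45037, and 10 genes out of 18193 with a symbol of their own. A probe set is a group of short probes on an Affymetrix array that match a transcript. Foxd1 and Tcf21 entered because both homozygote arrays lay beyond the other 4 arrays for them, so their homozygote values are given as a description without a test. The other 8 genes were chosen for what they are known to do, with earlier results of these data known.

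The study asked how cells without exon 2 of Cas (p130Cas, the product of Bcar1) differ from cells that keep it. The groups were homozygotes for the exon 2 deletion (∆/∆), heterozygotes (+/∆) and wild type (+/+), with 2 arrays for each genotype. Per the labels, all embryos came from crosses between heterozygotes and were taken at 12.5 days post coitum, and cells were grown from what was left after heads and inner organs had been removed. The strain is given as B6 for every array except wild type 1, which has no strain label. Each array holds the RNA of a primary culture, so it mixes the cells of trunk and limbs, the labels give no embryo sex, and fewer cells of a type and less RNA per cell cannot be told apart.

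Some of these factors mark where in the body a mesenchymal cell comes from, while others are found in mesenchyme of several regions. Tbx5 is a T-box factor of the forelimb field, while its relative Tbx4 and the homeodomain factor Pitx1 belong to the hindlimb field. Prrx1 and Prrx2 are paired-related homeodomain factors of limb bud and facial mesenchyme, Twist1 and Twist2 are basic helix-loop-helix (bHLH) factors of mesoderm and dermis, Meox2 is a homeodomain factor of somites and limb muscle precursors, Foxd1 is a forkhead factor best known from kidney stroma, and Tcf21 is a bHLH factor of the mesenchyme around visceral organs and of the epicardium. Cultured fibroblasts are known to keep part of this regional code.

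The arrays gave linear intensities, which were converted to log2 and quantile normalized. Over the 6 arrays, all 11 fibroblast markers were above the intensity filter, and Col1a1, the main fibrillar collagen, lay between 12.46 and 13.43 (log2 intensity). Of 7 epithelial markers 1 was above the filter, of 8 skeletal muscle markers 2, and of 7 endothelial markers 3, with Pecam1, Cdh5, Myod1 and Cdh1 below it. The macrophage markers, 15 of 17 above the filter, had summed intensities of 8213 to 18347 in homozygotes, 5516 to 6236 in heterozygotes and 3365 to 8036 in wild type. Xist, the RNA of the inactive X chromosome, was at 3.70 and 5.31 in homozygotes, 10.27 and 10.29 in heterozygotes, and 8.82 and 4.23 in wild type. The Y-linked gene Eif2s3y was at 8.76 and 8.61 in homozygotes, 1.24 and 1.70 in heterozygotes, and 3.61 and 8.37 in wild type. Both homozygote arrays were thus low in Xist and high in Eif2s3y and both heterozygote arrays the reverse, while the wild-type arrays differed from each other. Values from a fit with a score of sex-linked genes as a covariate are given for each factor. The score was 3.10 and 2.28 in homozygotes, -3.06 and -3.15 in heterozygotes, and -1.78 and 2.62 in wild type. Within genotypes it differed mainly between the wild-type arrays, so the covariate values rest largely on wild type 1 against wild type 2. Sex-linked signal and genotype cannot be told apart between homozygotes and heterozygotes. Both Bcar1 probe sets were highest in wild type 1 (9.37 and 8.21), and on both the homozygote arrays overlapped each of the other genotypes. On 1 of them the heterozygote arrays (8.19 and 8.32) lay below both wild-type arrays (9.37 and 8.42). The sources used here do not place them relative to exon 2, so they check nothing about the deletion.

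The promoters of Foxd1 and Tcf21 are shown because these genes stood apart in opposite directions in homozygotes, and those of Prrx1 and Twist1 because their profiles over the 6 arrays were the most alike among the factors. Each is the 250 bases before the annotated start, 5′ to 3′ on the gene's strand, from RefSeq (GRCm38.p6). Capitals mark CANNTG (the E-box that bHLH factors bind), TATAAA and GGGCGG, searched on both strands. They stand at chr13:98353995-98354244 (+), chr10:22820144-22820393 (-), chr1:163313651-163313900 (-) and chr12:33957421-33957670 (+), in the order printed.
Foxd1: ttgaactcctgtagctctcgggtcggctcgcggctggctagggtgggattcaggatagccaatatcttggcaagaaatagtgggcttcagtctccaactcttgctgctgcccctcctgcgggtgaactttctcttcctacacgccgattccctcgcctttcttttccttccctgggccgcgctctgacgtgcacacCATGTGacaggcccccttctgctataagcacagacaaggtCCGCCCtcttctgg
Tcf21: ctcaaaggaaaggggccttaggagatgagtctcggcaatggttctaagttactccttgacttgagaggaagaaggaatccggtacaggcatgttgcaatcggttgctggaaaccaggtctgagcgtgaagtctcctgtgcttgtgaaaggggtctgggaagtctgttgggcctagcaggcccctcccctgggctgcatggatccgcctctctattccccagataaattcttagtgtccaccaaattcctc
Prrx1: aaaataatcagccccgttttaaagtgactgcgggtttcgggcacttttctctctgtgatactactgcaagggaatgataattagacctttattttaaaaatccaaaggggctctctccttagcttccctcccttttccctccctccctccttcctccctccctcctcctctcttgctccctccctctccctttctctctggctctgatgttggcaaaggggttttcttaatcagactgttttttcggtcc
Twist1: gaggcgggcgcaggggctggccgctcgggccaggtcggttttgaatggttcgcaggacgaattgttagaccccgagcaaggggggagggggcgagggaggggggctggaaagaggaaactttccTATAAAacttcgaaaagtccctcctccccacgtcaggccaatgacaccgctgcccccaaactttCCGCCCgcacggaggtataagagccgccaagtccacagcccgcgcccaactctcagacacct

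The Foxd1 promoter held 1 CANNTG match, 48 bases before the start, and 1 GGGCGG match. Neither the Tcf21 nor the Prrx1 window held any of the 3 motifs, and Twist1 had 1 TATAAA and 1 GGGCGG match. Of the 8 factors with a promoter in the table, 3 held CANNTG (Foxd1, Tbx4 and Meox2), where 66.2% of all 32841 promoter windows of this length did. TATAAA was in 3 of the 8 (12.4% of all windows) and GGGCGG in 6 of the 8 (32.7%). The number of CG dinucleotides was 12 in Foxd1 and 18 in Twist1, against 5 in Tcf21 and 4 in Prrx1, with a median of 6 over all windows. Pitx1 and Tbx5 have no entry in the table. A match is a description of these letters.

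All 10 genes had a probe set above the intensity filter, which kept the brighter 50% of probe sets by mean over the 6 arrays, and 18 of their 20 probe sets passed. The probe set with the highest mean stands for each gene. Tcf21 (mean 5.03 over the 6 arrays) and Foxd1 (5.57) lay close above the filter, which stood at 4.57.

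**Figure D1:**
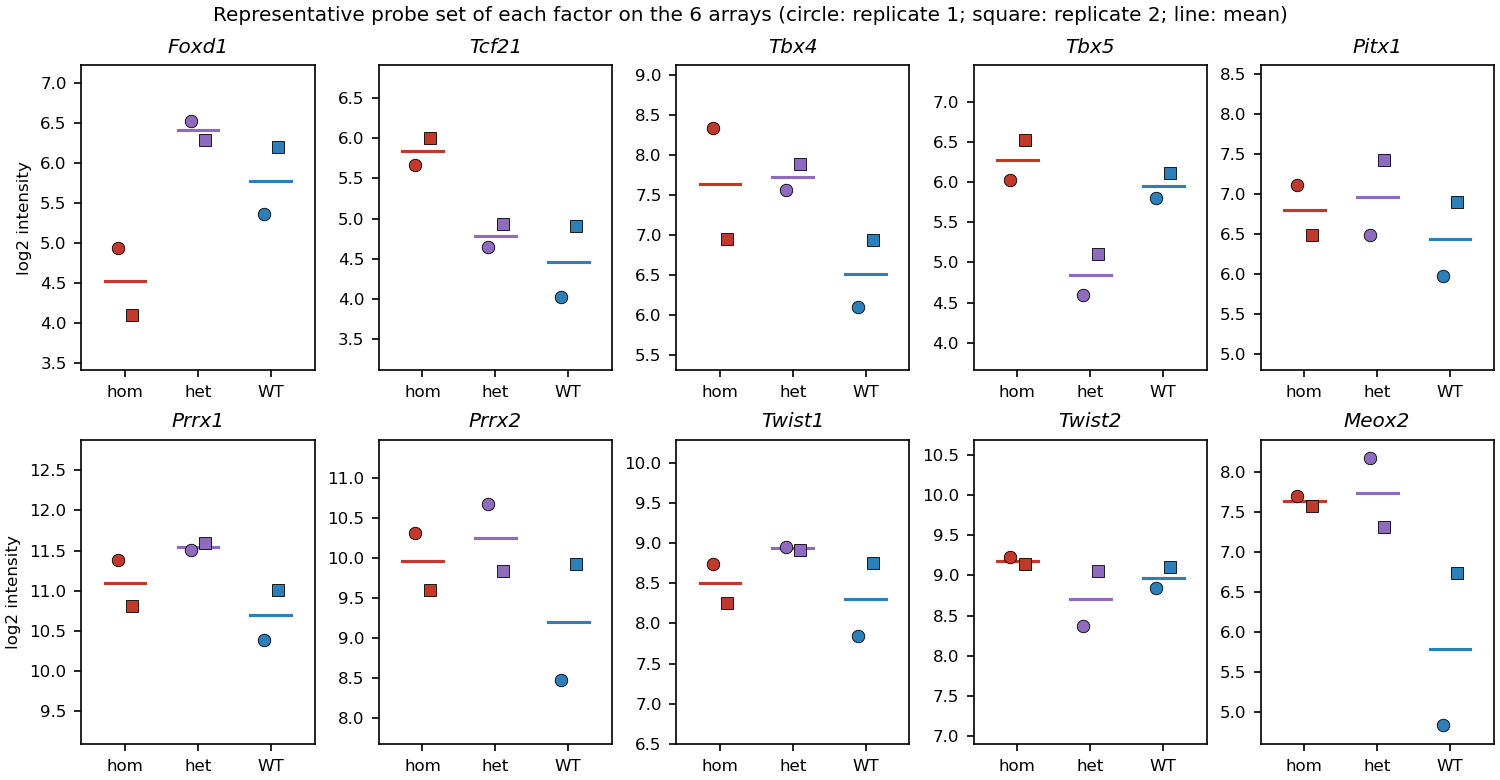
Log2 intensity (vertical axis) of the representative probe set of each factor in homozygotes (hom), heterozygotes (het) and wild type (WT); points are arrays, lines are means of 2 arrays, and each panel spans the same number of log2 units. Foxd1 is lowest and Tcf21 highest in the 2 homozygote arrays, Tbx5 is lowest in the 2 heterozygote arrays, and Meox2 is lowest in wild type 1 at 4.84.

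Homozygotes had less Foxd1 and more Tcf21 signal than the other genotypes, which is what chose these genes. Foxd1 was at 4.94 and 4.11 in homozygotes, 6.52 and 6.28 in heterozygotes, and 5.36 and 6.19 in wild type (log2 intensity). In the deposited scale this was 31.2 and 13.7 in homozygotes, 89.5 and 88.0 in heterozygotes, and 38.0 and 64.4 in wild type. The homozygote arrays were the lowest, and wild type 1 was the next, 0.42 above homozygote 1.

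Foxd1 averaged 4.52 ± 0.59 in homozygotes and 6.40 ± 0.17 in heterozygotes, against 5.78 ± 0.59 in wild type (SD, n = 2 each). Homozygotes were 2.96-fold lower than the mean of the other genotypes (log2 difference -1.57, SE 0.34), with -1.88 against heterozygotes and -1.25 against wild type. The homozygote arrays differed from each other by 0.83, and without homozygote 2 the difference was -1.15. With the covariate for sex-linked genes it was -2.44. Foxd1 has a single probe set here, so there is no second measurement of it. Markers of neural and Schwann cells moved the same way, with 5 of 6 tested genes lower in homozygotes than in the rest (median difference -1.06, 0 passed). Their summed intensities were 510.4 to 528.2 in homozygotes and 1397 to 2075 in heterozygotes, against 1859 to 2253 in wild type. Stmn2 made up most of each sum. It was at 8.46 and 8.08 in homozygotes, 10.19 and 10.77 in heterozygotes, and 10.82 and 10.64 in wild type. Marker medians relative to own means were -0.71 and -0.49 in homozygotes, -0.11 and 0.66 in heterozygotes, and 1.03 and 0.09 in wild type. The part of these markers in the Foxd1 values was not tested.

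Tcf21 was at 5.67 and 6.0 in homozygotes, 4.64 and 4.93 in heterozygotes, and 4.02 and 4.90 in wild type. The homozygote arrays were the highest, 0.75 above the next, heterozygote 2, while wild type 1 was the lowest. The means were 5.84 ± 0.23 in homozygotes and 4.79 ± 0.20 in heterozygotes, against 4.46 ± 0.62 in wild type (SD, n = 2 each), and homozygotes were 2.32-fold higher than the mean of the others (log2 difference 1.21, SE 0.30).

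The second Tcf21 probe set, which fell below the intensity filter, did not show this order. It was at 4.31 and 4.77 in homozygotes, 4.22 and 3.31 in heterozygotes, and 4.87 and 4.77 in wild type, so homozygotes overlapped the other arrays (difference 0.24). With the mean of both probe sets the Tcf21 difference was 0.73, and with the covariate for sex-linked genes it was 0.49. The macrophage markers had a median difference of 1.26 for homozygotes against the rest (15 genes, 0 passed). Relative to their own means, their medians were 1.23 and 0.20 in homozygotes, -0.28 and -0.50 in heterozygotes, and -1.10 and 0.28 in wild type. On this measure homozygote 2 lay just below wild type 2. Of the mesothelial and epicardial markers, 9 of 10 had a positive difference (median 0.55, 0 passed). Against heterozygotes alone 10 of 10 were higher in homozygotes (median 1.04). Against wild type alone 5 were higher and 5 lower (median 0.11). Those mesothelial and epicardial markers had summed intensities of 942.9 to 943.1 in homozygotes, 300.2 to 645.4 in heterozygotes and 668.6 to 1007 in wild type. The part of either marker list in the Tcf21 values was not tested.

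Between heterozygotes and wild type, which did not enter the choice, neither gene passed the test. Foxd1 differed by 0.63 (SE 0.40, limma adjusted p = 0.840), with the heterozygote arrays just above both wild-type arrays. This was 0.21 without wild type 1, 1.04 without wild type 2 and 1.40 with the covariate. Tcf21 differed by 0.32 (SE 0.34, limma adjusted p = 0.893), and this turned to -0.12 without wild type 1. It was 0.76 without wild type 2, 0.18 without heterozygote 2, 0.19 with a pseudocount of 16 and 0.95 with the covariate.

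Of the other members of the group, 0 passed in homozygotes against the rest, where limma called 0% of the 22519 tested probe sets. Without adjustment, 560 of these probe sets (2.49%) had a p under 0.05. Of the 8 genes other than Foxd1 and Tcf21, 6 had a positive difference and 2 a negative one, with a median of 0.29 beside -0.013 over all 11373 tested genes, and 47.4% of all genes had a positive difference. In these and all following differences, limma's adjusted p is over all tested probe sets.

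**Figure D2:**
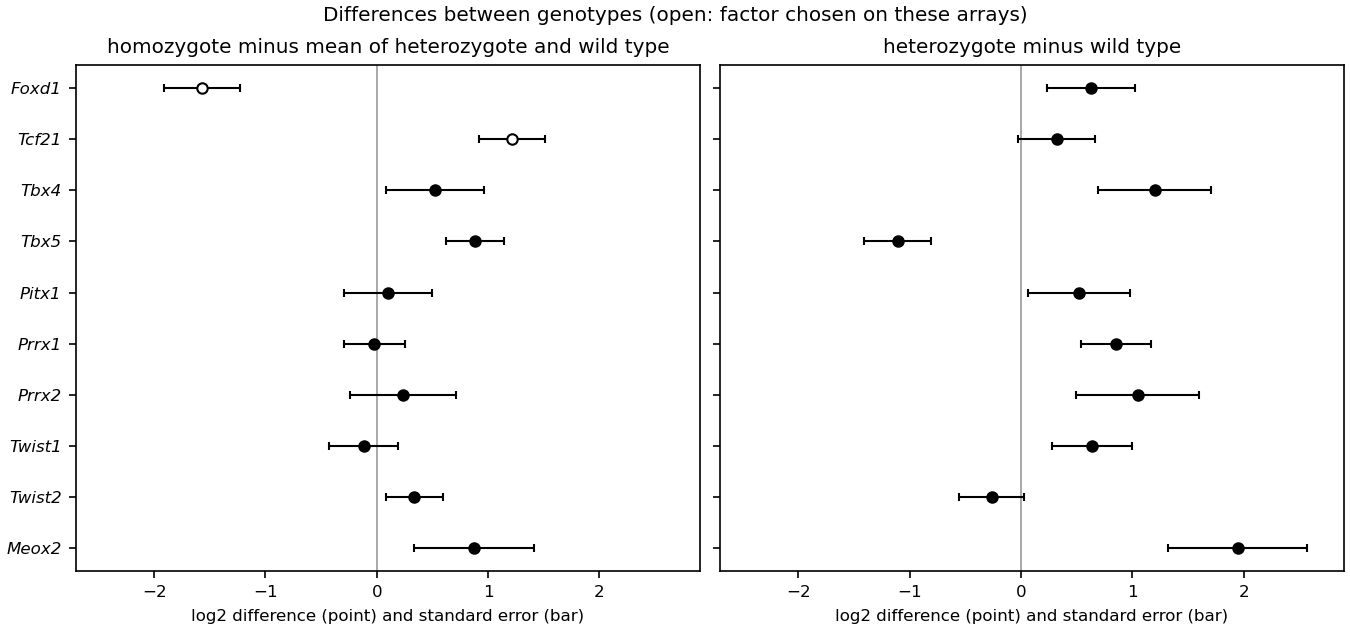
Log2 difference of each factor (points, bars are standard errors from the limma fit) for homozygotes minus the mean of heterozygotes and wild type (left) and heterozygotes minus wild type (right); open points are the genes chosen on these arrays. Foxd1 lies at -1.57 and Tcf21 at 1.21 on the left, and Meox2 at 1.95 and Tbx5 at -1.11 on the right; no closed point passed the threshold.

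Among the limb field factors, Tbx5 had the smallest unadjusted p in homozygotes against the rest. It was at 6.03 and 6.53 in homozygotes, 4.59 and 5.11 in heterozygotes, and 5.80 and 6.11 in wild type. The heterozygote arrays were the lowest and did not overlap either other genotype, while wild type 2 lay 0.08 above homozygote 1. Homozygotes differed from the rest by 0.88 (SE 0.26, unadjusted p = 0.0140, limma adjusted p = 1).

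Pairwise, Tbx5 homozygotes differed from heterozygotes by 1.43 (SE 0.30, limma adjusted p = 1) and from wild type by 0.33 (SE 0.30, limma adjusted p = 0.973). Heterozygotes differed from wild type by -1.11 (SE 0.30, limma adjusted p = 0.838). The second Tbx5 probe set gave 0.14 (SE 0.25) for homozygotes against the rest and -0.17 (SE 0.29) for heterozygotes against wild type, and all 3 genotypes overlapped on it. With the mean of both probe sets these differences were 0.51 and -0.64, and with the covariate the first probe set gave 0.69 and -0.94.

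Tbx4, the hindlimb relative, had a different order of arrays. It was at 8.34 and 6.95 in homozygotes, 7.56 and 7.88 in heterozygotes, and 6.10 and 6.94 in wild type. Homozygote 1 was highest and wild type 1 lowest, and the homozygote arrays differed from each other by 1.39. Homozygotes differed from the rest by 0.52 (SE 0.44, limma adjusted p = 1), which turned to -0.17 without homozygote 1, and heterozygotes differed from wild type by 1.20 (SE 0.51, limma adjusted p = 0.838). Without homozygote 2 the first was 1.22, and without wild type 1 they were 0.31 and 0.78. With the covariate they were -0.44 and 2.04. The other Tbx4 probe set had the same lowest and highest array, at 3.14 and 6.51, and gave 0.82 (SE 0.75) and 1.22 (SE 0.87) for the same comparisons.

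Pitx1 was at 7.11 and 6.49 in homozygotes, 6.49 and 7.43 in heterozygotes, and 5.98 and 6.90 in wild type, so the genotypes overlapped. The difference was 0.10 (SE 0.40, limma adjusted p = 1) for homozygotes against the rest and 0.52 (SE 0.46, limma adjusted p = 0.866) for heterozygotes against wild type. Leaving out 1 array moved the first between -0.21 and 0.41 and the second between 0.048 (without heterozygote 2) and 0.99 (without heterozygote 1), with 0.061 without wild type 1 and 0.98 without wild type 2. With the covariate they were -0.79 and 1.30, and with the mean of both probe sets -0.042 and 0.33. Its dimmer probe set, between 4.62 and 5.12 on the 6 arrays, gave -0.18 (SE 0.22) and 0.13 (SE 0.26). Relative to each gene's own mean over the 6 arrays, Tbx4 and Pitx1 were both lowest in wild type 1 (-1.19 and -0.75), where Tbx5 was at 0.10. In heterozygote 1, Tbx5 was at -1.10, Tbx4 at 0.27 and Pitx1 at -0.24.

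Prrx1, a paired-related factor, was at 11.39 and 10.81 in homozygotes, 11.50 and 11.59 in heterozygotes, and 10.38 and 11.01 in wild type. In the deposited scale it ran to 3279 in heterozygote 2, against 1486 in wild type 1. The heterozygote arrays were above all others, and the homozygote arrays lay among the wild-type range or above it.

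In Prrx1, the difference of homozygotes from the rest was smaller than its standard error (difference -0.02, SE 0.27, limma adjusted p = 1), and its 5 tested probe sets gave -0.11 to 0.07. Heterozygotes differed from wild type by 0.85 (SE 0.32, unadjusted p = 0.0344, limma adjusted p = 0.838), and the other 4 tested probe sets gave 0.33 to 0.71, each with the heterozygote arrays above both wild-type arrays. The sixth Prrx1 probe set lay at 1.45 to 4.01, below the filter, and gave -1.59 there. With the mean of all 6 probe sets the difference of heterozygotes from wild type was 0.18, and without wild type 1 it was 0.54. With the covariate the Prrx1 differences were -0.67 for homozygotes against the rest and 1.42 for heterozygotes against wild type.

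Prrx2 was at 10.31 and 9.60 in homozygotes, 10.67 and 9.83 in heterozygotes, and 8.48 and 9.92 in wild type. Wild type 1 was the lowest array by more than 1 log2 unit, and the other 5 arrays of the 3 genotypes overlapped. The difference was 0.23 (SE 0.48, limma adjusted p = 1) for homozygotes against the rest and 1.05 (SE 0.55, limma adjusted p = 0.838) for heterozygotes against wild type, with 0.33 without wild type 1, 0.63 without heterozygote 1 and 1.77 without wild type 2. Leaving out 1 array moved the first between -0.13 and 0.59, and with the covariate they were -1.18 and 2.28.

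Twist1 was at 8.75 and 8.25 in homozygotes, 8.95 and 8.92 in heterozygotes, and 7.84 and 8.76 in wild type. The heterozygote arrays were the highest and wild type 1 the lowest. Differences were -0.12 (SE 0.31, limma adjusted p = 1) for homozygotes against the rest and 0.64 (SE 0.36, limma adjusted p = 0.838) for heterozygotes against wild type, which was 0.18 without wild type 1 and 1.10 without wild type 2. Leaving out 1 array moved the first between -0.37 and 0.13, and with the covariate they were -1.01 and 1.42.

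Twist2, its close relative, was at 9.22 and 9.14 in homozygotes, 8.37 and 9.06 in heterozygotes, and 8.84 and 9.10 in wild type. It varied least of the 10 genes, with a range of 0.86 over the 6 arrays. Both homozygote arrays lay above the other 4, but by 0.03, and without quantile normalization or with median centring they overlapped them. The difference was 0.34 (SE 0.25, limma adjusted p = 1) for homozygotes against the rest and -0.26 (SE 0.29, limma adjusted p = 0.896) for heterozygotes against wild type. These were 0.17 and 0.084 without heterozygote 1, 0.51 and -0.61 without heterozygote 2, and 0.11 and -0.059 with the covariate. Without wild type 2 the second was -0.13.

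The choice of Foxd1 and Tcf21 rested on both homozygote arrays lying beyond the other arrays, with no stated size of the gap. Foxd1 was separated by 0.42 and Tcf21 by 0.75. Twist2 also met this criterion, by 0.03, and Tbx5 missed it with an overlap of 0.08. Without quantile normalization Tbx5 was separated by 0.15 and Twist2 overlapped. Which of Tbx5 and Twist2 met the criterion thus changed with the scaling, and no threshold can be read from these values. Over all tested genes, both homozygote arrays lay above the other 4 for 3.16% and below them for 3.61%.

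Meox2 had the largest range of the 10 genes. It was at 7.70 and 7.58 in homozygotes, 8.17 and 7.31 in heterozygotes, and 4.84 and 6.74 in wild type. In the deposited scale this was 207.8 and 178.3 in homozygotes, 278.7 and 181.8 in heterozygotes, and 26.0 and 95.6 in wild type. Wild type 1 was lowest by 1.91 log2 units, and wild type 2 was also below all arrays of the other genotypes.

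Homozygotes differed from wild type in Meox2 by 1.85 (SE 0.62, unadjusted p = 0.0241, limma adjusted p = 0.973), and heterozygotes from wild type by 1.95 (SE 0.62, unadjusted p = 0.0194, limma adjusted p = 0.838). Homozygotes and heterozygotes overlapped (difference -0.10, SE 0.62, limma adjusted p = 1). The second Meox2 probe set, from the same transcript sequence, gave 2.03 (SE 0.53), 2.09 (SE 0.53) and -0.06 (SE 0.53). Both comparisons with wild type share the wild-type arrays. Without wild type 1 the difference of heterozygotes from wild type was 1.00, and with the covariate for sex-linked genes it was 3.45. Against the rest, homozygotes differed by 0.87 (SE 0.54, limma adjusted p = 1), which turned to -0.85 with the covariate. It was 0.40 without wild type 1 and 1.35 without wild type 2.

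Counted by arrays, heterozygotes lay above wild type without overlap for 5 of the 10 genes (Foxd1, Tbx4, Prrx1, Twist1 and Meox2) and below it for 1 (Tbx5). Over all tested genes these shares were 17.6% and 18.4%. The median difference was 0.63 over the 10 genes and 0.00 over all genes, and 0 of the 10 passed, as did 0 of 22519 probe sets (0%). Unadjusted p was under 0.05 for 3 of the 10 genes (Prrx1 and Meox2 higher, Tbx5 lower in heterozygotes) and for 4.33% of all tested genes.

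Homozygotes lay above wild type without overlap for 4 genes (Tcf21, Tbx4, Twist2 and Meox2; 12.5% of all genes) and below it for 1 (Foxd1; 14.3%). They lay above heterozygotes for 3 genes (Tcf21, Tbx5 and Twist2; 10.5%) and below them for 3 (Foxd1, Prrx1 and Twist1; 12.4%). Of the tested probe sets, limma called 0% against wild type (855 at an unadjusted p under 0.05) and 0% against heterozygotes (488). The Tbx4 separation was 0.010. The choice of Foxd1 and Tcf21 fixed their place in these counts, so nothing is read from their being among them. Without them, 3 and 0 of 8 genes lay above and below wild type, and 2 and 2 above and below heterozygotes.

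**Figure D3:**
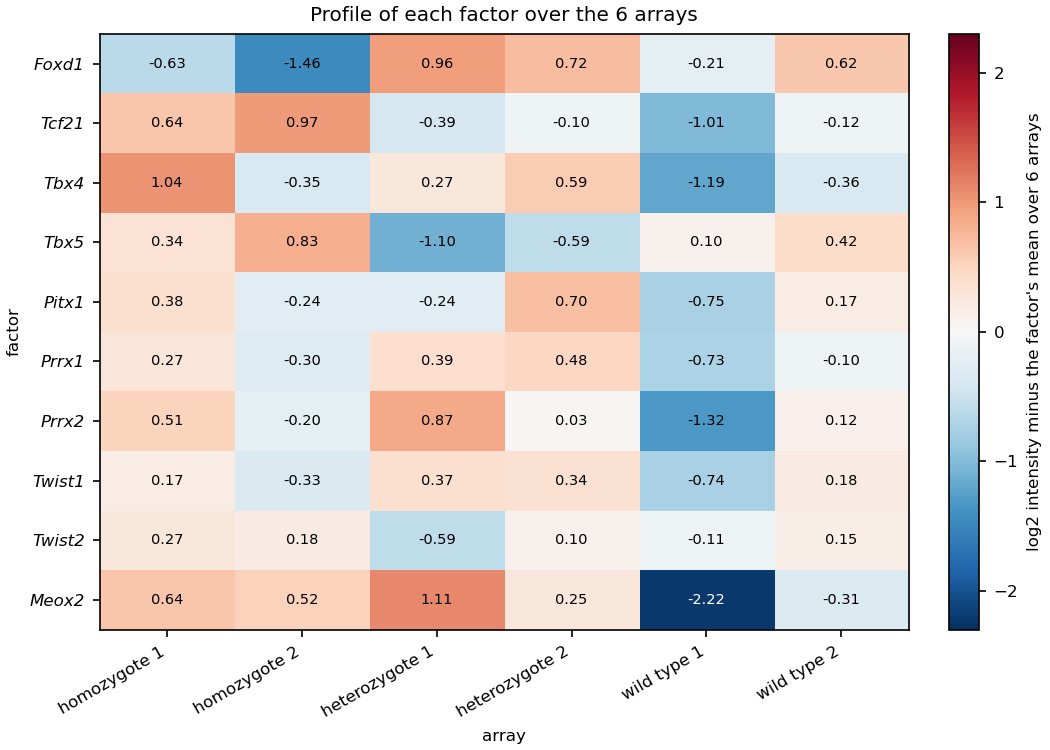
Log2 intensity of each factor's representative probe set minus its own mean over the 6 arrays (colour and number), with factors in rows and arrays in columns. The column of wild type 1 holds the lowest value of 7 factors, down to -2.22 for Meox2, while Foxd1 is lowest in homozygote 2 and Tbx5 and Twist2 in heterozygote 1.

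Wild type 1 stood apart for most of the group. It was the lowest array for 7 of the 10 genes, where it was the lowest for 26.6% of all tested genes, and it was the highest for 0. The median of the 10 genes relative to their own means was 0.36 and -0.22 in homozygotes, 0.32 and 0.30 in heterozygotes, and -0.74 and 0.13 in wild type, while over all genes these medians lay between -0.03 and 0.04. The wild-type arrays differed from each other by a median of 0.86 over the 10 genes and 0.32 over all genes. For the homozygote arrays these medians were 0.54 and 0.32, and for the heterozygote arrays 0.42 and 0.27.

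Fibroblast markers had the same lowest array, with medians relative to their own means of 0.11 and -0.04 in homozygotes, 0.15 and 0.23 in heterozygotes, and -0.61 and -0.09 in wild type. Their summed intensity was 69537 to 79975 in homozygotes, 76108 to 76134 in heterozygotes and 53855 to 67563 in wild type. Pdgfra, a receptor of mesenchymal cells, was at 10.44 and 8.32 in homozygotes, 8.84 and 9.38 in heterozygotes, and 6.80 and 8.45 in wild type. Between heterozygotes and wild type, 10 of the 11 fibroblast markers had a positive difference (median 0.64, 0 passed), as had all 4 tested cartilage markers of 9 listed (median 1.24, 0 passed). Not all markers were low in wild type 1. Vim, an intermediate filament of mesenchymal cells, was highest there (13.81). Relative to their own means, the macrophage markers had a median of -1.10 in wild type 1, their lowest, while the neural and Schwann cell markers (1.03) and the endothelial markers (0.88) were highest there. The part of these markers in the low values of wild type 1 was not tested.

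Between pairs of the 10 genes, the mean absolute difference of their profiles over the 6 arrays, each centred on its own mean, was smallest for Prrx1 and Twist1 (0.10 log2 units) and 1.24 for Foxd1 and Tcf21, the largest, which were chosen for homozygote arrays at opposite ends. The relatives Prrx1 and Prrx2 were at 0.35, Twist1 and Twist2 at 0.41, and Tbx4 and Tbx5 at 1.08. By the same measure, the 3 of 11372 other genes nearest to Foxd1 were Tfap2b, an AP-2 factor of neural crest (0.24), Mm2pr (0.24) and Angel1 (0.28). Nearest to Tcf21 were Stxbp5l, a relative of the syntaxin-binding tomosyn (0.14), the chemokine Ccl7 (0.14) and Cd300a, a receptor of myeloid cells (0.19). These rest on 6 arrays. The homozygote arrays were also the lowest for each gene named as nearest to Foxd1, and the highest for each nearest to Tcf21. The choice of Foxd1 and Tcf21 on those arrays favours such neighbours, so nothing is read from which genes they are.

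The other transcription factors of limb and regional mesenchyme also held 0 genes that passed. Of 44 listed genes 30 were tested, 17 with a positive and 13 with a negative difference in homozygotes against the rest (median 0.041, against -0.013 over all genes). Foxc2, a forkhead factor of paraxial mesenchyme, was at 6.11 and 6.60 in homozygotes, 6.97 and 7.17 in heterozygotes, and 7.59 and 7.24 in wild type, so the homozygote arrays were the lowest (difference -0.89, SE 0.23, limma adjusted p = 1). Msx2, a homeodomain factor of limb bud and skull, gave -0.88 (SE 0.31), and Lhx9, a LIM homeodomain factor of limb mesenchyme, gave -0.80 (SE 0.33), each with limma adjusted p = 1. For Msx2, homozygotes (5.24 and 5.75) overlapped heterozygotes (6.01 and 5.42), and wild type was higher (7.38 and 6.69). For Lhx9, wild type 1 (7.83) lay below homozygote 1 (8.05). For heterozygotes against wild type, 21 of the 30 had a positive difference, with a median of 0.28 and 0 passed.

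Of the bHLH partners, which are E proteins that pair with Twist and Tcf21, Id proteins that block them, and the relatives Scx, Hand1 and Hand2, 9 of 10 listed genes were tested. Hand1 and Hand2 also stand in the list of regional factors. In homozygotes against the rest 6 had a positive and 3 a negative difference (median 0.10, 0 passed). Id4 gave 0.73 (SE 0.28), Id2 gave 0.55 (SE 0.43) and the tendon factor Scx gave 0.33 (SE 0.33), each with limma adjusted p = 1. Id4 was at 8.73 and 8.11 in homozygotes, 8.22 and 7.62 in heterozygotes, and 7.60 and 7.34 in wild type, so homozygotes and heterozygotes overlapped.

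Of 15 limb bud signals and receptors, 7 were tested, and Fgf10, Fgf8, Fgf4, Shh, Gli1, Wnt7a, Bmp2 and Bmp7 lay below the filter. In homozygotes against the rest 3 had a positive and 4 a negative difference (median -0.12, 0 passed). Wnt5a, the Wnt ligand of limb outgrowth, gave -0.55 (SE 0.24), the receptor Fgfr2 gave 0.50 (SE 0.35) and the BMP antagonist Grem1 gave -0.23 (SE 0.21), each with limma adjusted p = 1. Wnt5a was at 7.80 and 8.14 in homozygotes, 8.64 and 8.48 in heterozygotes, and 8.75 and 8.23 in wild type, with the homozygote arrays lowest.

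**Figure D4:**
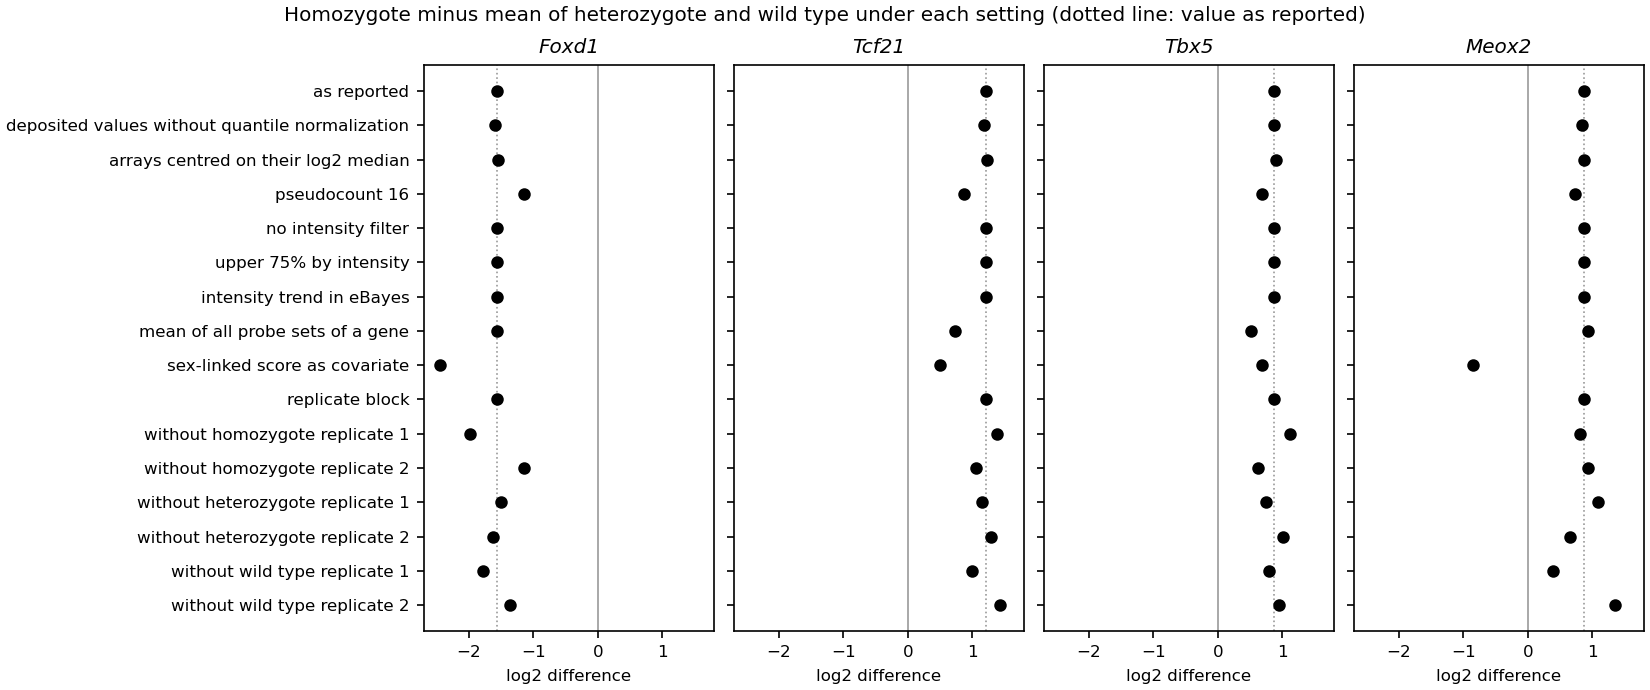
Log2 difference of homozygotes from the mean of heterozygotes and wild type (horizontal axis) for 4 factors under each processing setting and with each array left out (rows). Foxd1 lies between -2.44 and -1.14 and Tcf21 between 0.49 and 1.43, Tbx5 lies between 0.51 and 1.13, and Meox2 turns to -0.85 with the score of sex-linked genes as a covariate.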

How the data were processed

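The deposited values were 1 linear intensity for each of 45101 probe sets on each of 6 Affymetrix arrays (2 µg of total RNA labelled with biotin, per the labels). For the authors' scanning, probe set summary, scaling and genome build, details were not given in the sources used here. Linear scale was inferred from the values. A pseudocount of 1.78, which is percentile 10 of the whole table, was added before taking log2. Array medians on that scale spanned 0.29, over the limit of 0.1, and the arrays were therefore quantile normalized. Folds are on this scale, which understates the change of dim genes. After 64 control probe sets had been left out, the upper 50% by mean (22519, lowest mean 4.57) were tested.

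Symbols came from GEO's platform annotation and were brought up to date by Entrez ID from RefSeq (GRCm38.p6). Of the probe sets, 34945 had 1 symbol (34741 matched that table), 932 had several and 9160 none.

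Genotype means were fitted to all 6 arrays together with lmFit and eBayes of limma 3.58.1 under R 4.3.3, which left 3 residual and 3.28 prior degrees of freedom. Adjusted p (Benjamini-Hochberg, every probe set above the filter) was called under 0.05. It was tested on simulated data. The labels do not say whether the 2 arrays of a genotype came from different embryos, so p-values measure only the spread between these samples, which may be technical, and their number limits the precision. Replicate numbers come from the sample titles.

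Members and gene lists were chosen with earlier results of these data known. The text names all 10 members with every probe set, and the highest-mean probe set stands for a gene. It also names the 3 genes with the smallest unadjusted p of each pathway list, the 3 nearest profiles to Foxd1 and Tcf21, and a few markers. Alternatives were no quantile normalization, median centring, a pseudocount of 16, no filter or the upper 75%, an intensity trend, mean probe sets, a covariate from Eif2s3y, Uty, Kdm5d and Xist, a replicate block, and each array left out.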

Additional observations from a re-analysis of the deposited data

How the results depend on the processing

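Under 15 alternatives 0 of the factors with a test passed. These were 8 in the homozygote comparisons, where Foxd1 and Tcf21 had none, and 10 for heterozygotes against wild type, or 9 with mean probe sets, which put Tcf21 below the filter. The number of all probe sets called, 0 in each comparison as reported, was 1 for heterozygotes against wild type with the covariate for sex-linked genes. With 1 array left out it ran from 0 to 2 for homozygotes against the rest (2 without wild type 2), from 0 to 3 against heterozygotes (3 without wild type 1, 2 without wild type 2), was 0 against wild type, and ran from 0 to 3 for heterozygotes against wild type (3 without wild type 1). The 560 probe sets with an unadjusted p under 0.05 for homozygotes against the rest became 2208 without the intensity filter, 1337 with the upper 75%, 1104 with the covariate, 1387 without homozygote 2 and 1059 without wild type 2.

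For homozygotes against the rest, the directions of Tbx5 and Twist2 held under these alternatives. Foxd1 ran from -2.44 to -1.14 and Tcf21 from 0.49 to 1.43, and their choice on these arrays fixed both directions in advance. Other directions turned, each without a call. With the covariate for sex-linked genes Tbx4 was at -0.44, Pitx1 at -0.79, Prrx2 at -1.18 and Meox2 at -0.85. Without homozygote 1 Tbx4 was at -0.17, Pitx1 at -0.21 and Prrx2 at -0.12, and without homozygote 2 Prrx1 was at 0.27 and Twist1 at 0.13. Without wild type 1 Pitx1 was at -0.13 and Prrx2 at -0.13, and without wild type 2 Prrx1 was at 0.13 and Twist1 at 0.11. Pitx1 was also at -0.13 without heterozygote 1 and at -0.042 with mean probe sets. With 1 array left out, the highest values were 1.22 for Tbx4, 0.41 for Pitx1 and 0.59 for Prrx2, and the lowest was -0.31 for Prrx1.

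For heterozygotes against wild type, Tcf21 turned to -0.12 without wild type 1 and -0.37 with mean probe sets, and Twist2 to 0.084 without heterozygote 1. Leaving out 1 array moved Tcf21 as high as 0.76 and Twist2 as low as -0.61. The cause of these turns was not tested. In that comparison, leaving out wild type 1 lowered Meox2 to 1.00, Tbx4 to 0.78, Prrx1 to 0.54, Prrx2 to 0.33, Foxd1 to 0.21, Twist1 to 0.18 and Pitx1 to 0.061.

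With the replicate number as a block 0 probe sets were called. Each number stands once in each genotype, so the block cannot move a difference (Foxd1 -1.57, Tcf21 1.21). Deviations of same-numbered arrays of different genotypes were negatively correlated over tested probe sets (-0.36 to -0.14). With 2 arrays per genotype, this cannot tell whether same-numbered arrays shared a batch. The median standard error over tested probe sets was 0.25, and differences many times that size were not called, such as -2.34 for Stmn2 (SE 0.25, limma adjusted p = 0.700) in homozygotes against the rest.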
